A study of Acartia tonsa with 26 samples.

Results

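Genes for neural receptors, ion channels and synaptotagmins were followed through the embryonic development of the calanoid copepod Acartia tonsa, in RNA sequencing of whole eggs. A gene belonged to the set if its annotation held a domain whose name starts with Neur_chan_, Lig_chan, Ion_trans or 7tm_, a domain named ANF_receptor, ASC or SBP_bac_3, or a protein match starting with SYT, KCN or OPS. The rule used annotation only, and it found 117 of the 9502 genes in the deposited table of directly developing (subitaneous) eggs. A protein match names the most similar known protein and does not identify the copepod gene. Of the 117 genes, 111 had such a match, most often from Drosophila (41 genes), human (17 genes) or Caenorhabditis elegans (11 genes), and 6 carried a domain without a match.

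Quiescent eggs were held at 4 °C without oxygen, are listed at 26 h and were staged as gastrulae (3 libraries, A, C and D). Developing eggs were sampled at 3 h, at cleavage (5 libraries, A to E), at 7 h, at gastrulation (5 libraries, A to E), at 14 h, at organogenesis (4 libraries, A, B, C and E), at 24 h, when appendages form (4 libraries, A to D), and at 42 h, as nauplii ready to hatch (5 libraries, A to E). All eggs came from a culture kept dark in 60 L tanks at 16.9 °C and a salinity of 32. Each library held RNA of a whole batch of eggs, and the submitters call the libraries of a stage technical replicates, so every p-value measures only the spread between such libraries. In whole eggs, more cells of a type and more RNA per cell cannot be told apart. The submitters listed only genes that they had selected as different between stages in these same libraries, at an alpha of 0.001 and a fold of 2, so a call in a stage comparison is not independent evidence that a gene changed.

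Neurons signal through ligand-gated and voltage-gated channels, through receptors coupled to G proteins, and through vesicles whose fusion is triggered by calcium. Cys-loop receptors open on binding acetylcholine, GABA, glycine or, in arthropods and nematodes, glutamate. Ionotropic glutamate receptors and their arthropod relatives, the ionotropic receptors, carry fast excitation and chemosensory signals. Potassium, sodium and calcium channels set the resting potential, fire action potentials and admit calcium, and synaptotagmins are calcium sensors on vesicles. A copepod nauplius swims as soon as it has hatched. The set was sorted into 44 cation channels, 31 Cys-loop receptors, 20 receptors with a 7-transmembrane domain, 7 ionotropic glutamate receptors, 7 synaptotagmins, 5 genes with the ANF_receptor domain and 3 channels of the DEG/ENaC family.

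The deposited values are read counts divided by a factor for each library, without correction for gene length, so levels are compared between libraries and not between genes. The 26 libraries held between 4302940 and 24170800 reads in the table. A value of 0.1 stood for 8.18 to 11.2 reads, and 3 reads for 0.0268 to 0.0367. These are genes of low abundance. Their means over the libraries ran from 0.0356 to 13.5, with a median of 0.155, and 30 of 117 reached a mean of 1 at some stage. Genes were tested where at least 3 libraries reached 0.1, which kept 115 of the 117. The exceptions matched the Drosophila BK potassium channel (DN39490_c0_g1, SLO_DROME) and a Drosophila protein named as a sodium channel (DN46674_c0_g1, SCN60_DROME). DN39490_c0_g1 had 0.091, 0.122, 0.29 and 0.095 at 42 h, and DN46674_c0_g1 had 0.121, 0.086, 0.145 and 0.083. Of the 115, 31 (27.0%) passed only through the 42 h libraries, as did 1413 (14.96%) of the 9443 genes tested, so these had to be higher at 42 h than before, and their calls at 42 h are a description of how they were chosen.

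Library D of 42 h stood apart from the other libraries of its stage. The summed value of the 117 genes was 24.97 in that library, and 118, 118, 240 and 123 in 42 h A, B, C and E. It was below these 4 in 109 of the 117 genes, and 79 genes lay within the range of the 3 h, 7 h and quiescent libraries. Across the 117 genes its values had a rank correlation of 0.30 with the other 42 h libraries, 0.57 with 3 h and 0.59 with quiescent eggs. The library was therefore left out of the tests, and values with it are given beside those for 42 h. What sets it apart was not tested. Values of a stage are given in the order of their letters, 42 h without D, and log2 changes are on the scale of log2(value + 0.1), which understates the change of low genes.

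On the deposited scale, levels of the set went up at organogenesis and before hatching, as did those of the whole table. The median log2 changes were 0.75 and 1.30 for the set, and 0.83 and 1.41 for all genes. Under quantile normalization those of the set were -0.30 and -0.12. From 14 h to 24 h the summed values rose in letters A and B and fell in C. The summed values were 20.5, 21.9, 19.1, 23.2 and 21.1 at 3 h, and 19.4, 19.1, 16.1, 19.6 and 19.5 at 7 h. They were 36.8, 35.3, 50.6 and 66.5 at 14 h, and 47.9, 40.1, 37.0 and 32.8 at 24 h. The 4 libraries of 42 h, given above, lay over every earlier library. Library 42 h C was the high one. A single gene, the opsin match DN439_c1_g1, gave 30.5% to 50.5% of the sum at 3 h, 32.4% to 64.0% at 7 h and 14.1% to 20.5% at 42 h. Without it the sums were 11.5 to 13.4 at 3 h, 7.07 to 12.2 at 7 h, 23.96 to 46.99 at 14 h, 19.6 to 38.6 at 24 h and 94.1 to 191 at 42 h. The mean was highest at 42 h in 103 of the 117 genes (88.03%), as it was in 6939 (73.5%) of the 9443 genes tested. For 8 genes the top stage was 24 h, for 3 it was 14 h and for 3 it was 3 h. The 24 h mean lay below the 14 h mean in 77 of the 117 (65.8%), and in 5102 (54.03%) of all tested genes.

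**Figure D1:**
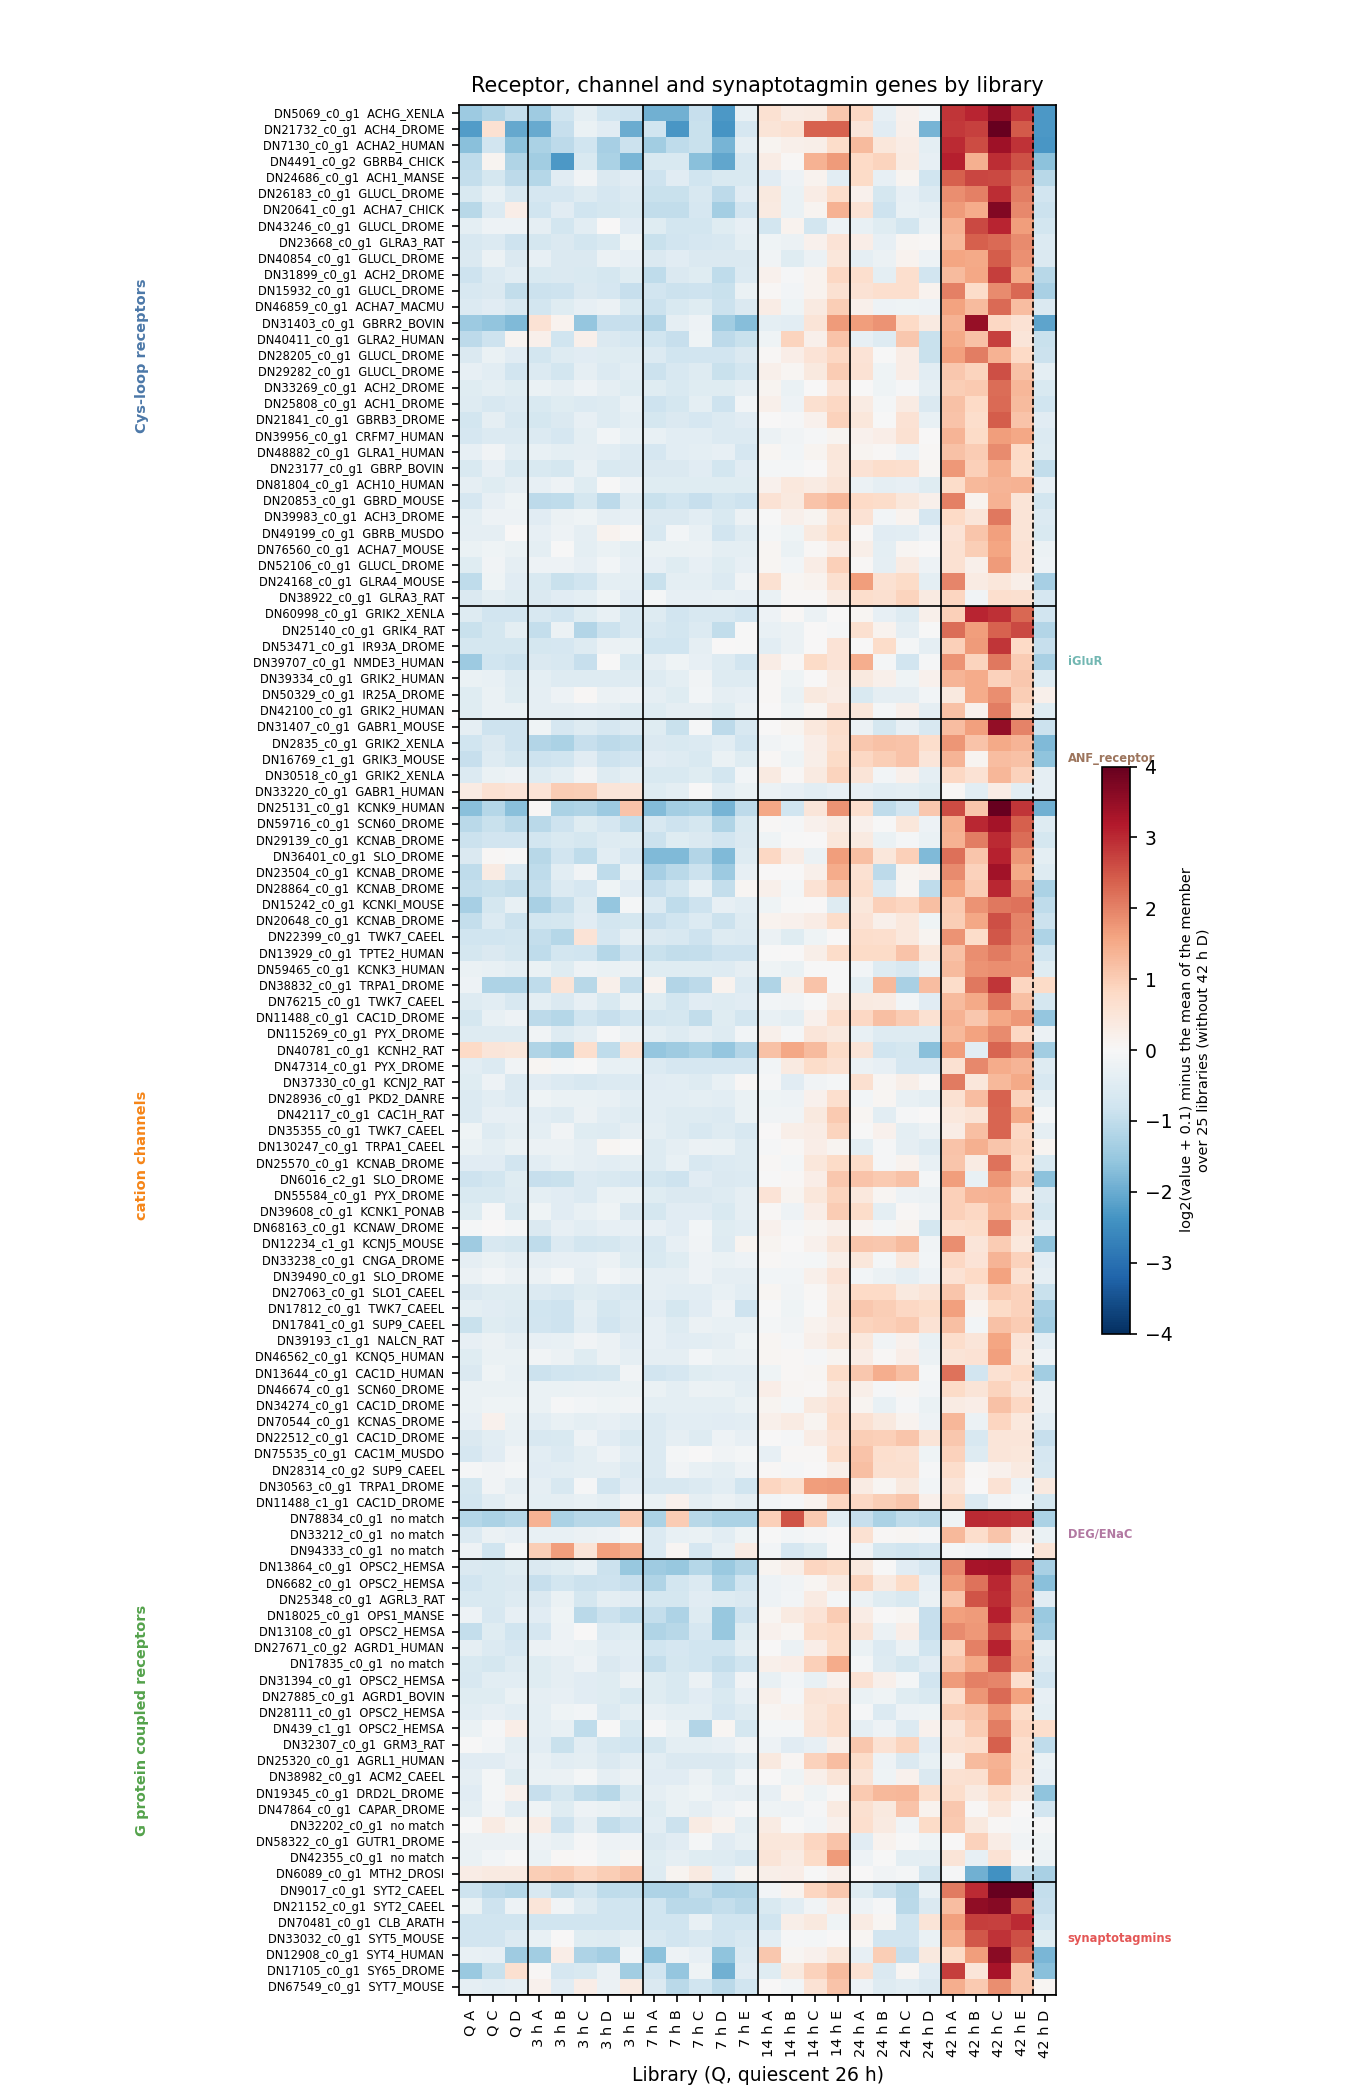
Heat map of the 117 genes (rows, grouped by role, with protein match) in all 26 libraries (columns; Q, quiescent 26 h). Colour gives log2(value + 0.1) minus the mean of that gene over the 25 libraries without 42 h D; most rows are high in 42 h A, B, C and E, while 42 h D resembles the early and quiescent columns, with 109 genes below the other 42 h libraries.

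**Figure D2:**
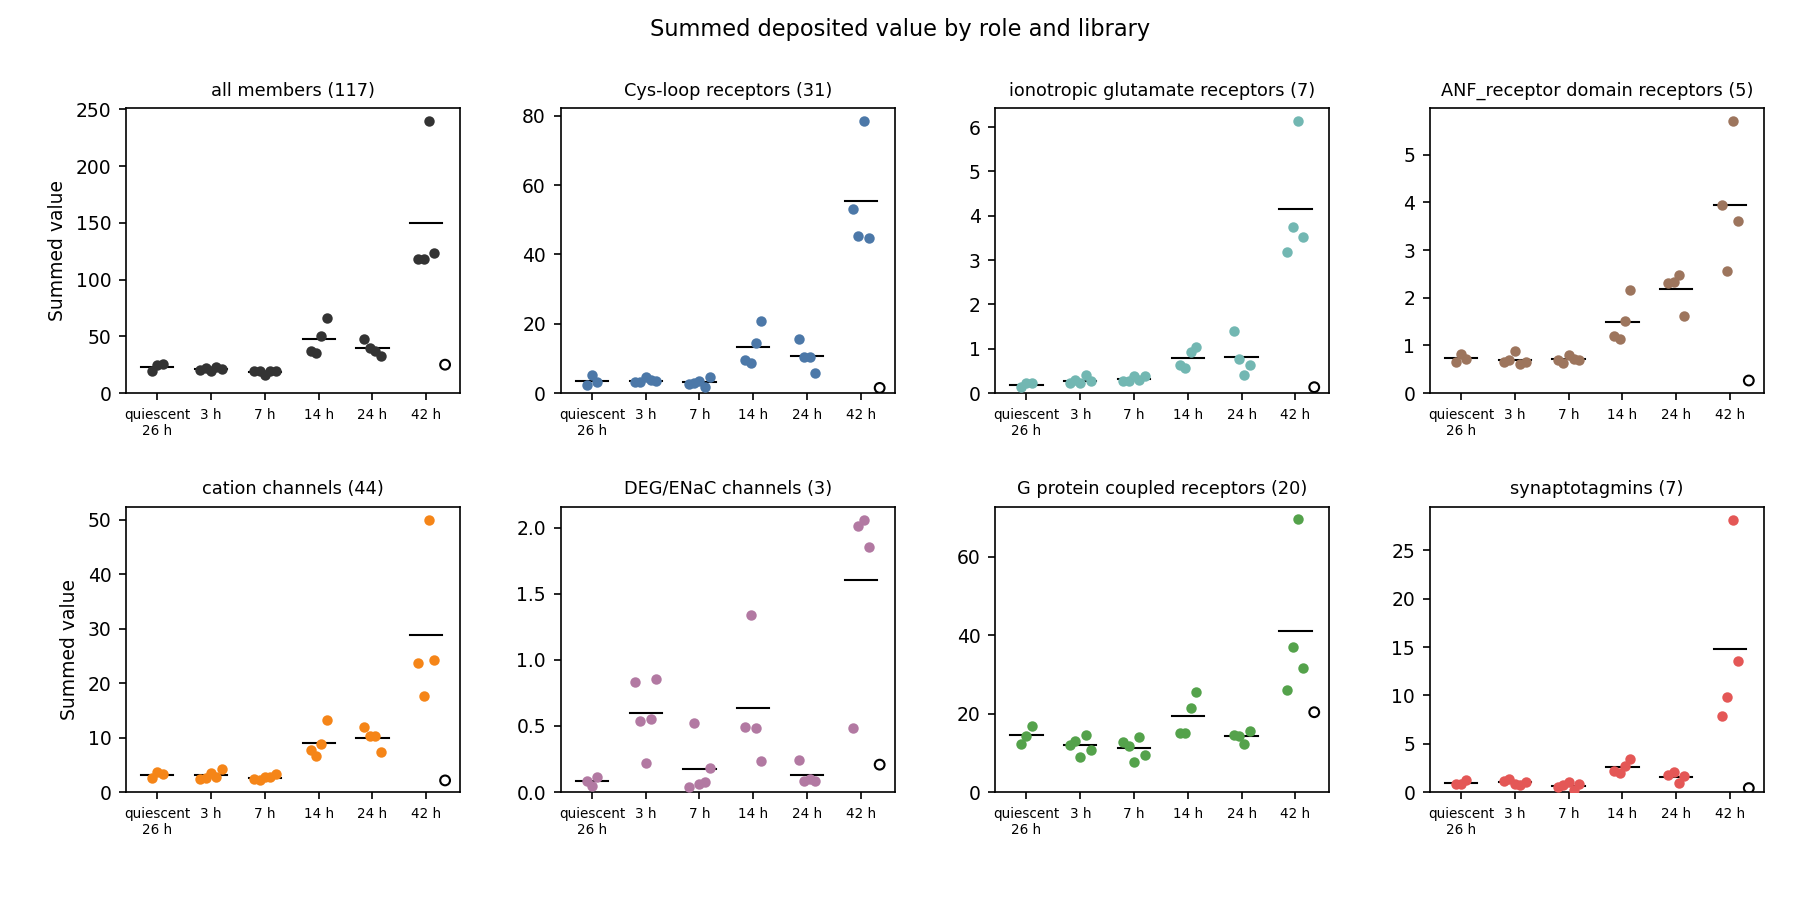
Summed deposited value by role for each library (points), by stage and in quiescent eggs, with a black bar at the mean of each group, each axis starting at 0 and an open circle for 42 h D, which is not in the mean. The panel of all genes shows the values given in the text, from 16.1 in 7 h C to 240 in 42 h C, and 24.97 in 42 h D.

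From cleavage to gastrulation few genes of the set changed. At 7 h against 3 h, limma called 4 of 115 genes lower at an adjusted p under 0.05, against 13.9% of all 9443 genes tested, and 0 higher, against 1.14%. At an unadjusted p under 0.05 the counts were 8 lower and 2 higher, beside 2396 of the 9443 genes in either direction. With edgeR, 10 were called lower and 1 higher, beside 1829 and 146 of all genes. The libraries of the stages did not overlap in 8 genes that were lower (18.3% of all genes) and 3 that were higher (2.73%). With 42 h D in the fit 2 genes were called, both lower, beside 809 lower and 3 higher of 9444. On this step, median-ratio rescaling gave 15 lower and 4 higher, beside 2136 and 392 of the 9443 genes. Quantile normalization gave 4 lower and 20 higher, beside 1115 and 1522.

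Between gastrulation and organogenesis most of the set rose on the deposited scale. At 14 h against 7 h, 80 of 115 genes were called higher, where 55.2% of all genes were, and 0 were called lower, where 2.99% were. At an unadjusted p under 0.05 the counts were 89 higher and 0 lower, beside 5950 of the 9443 genes in either direction. With edgeR, 90 were called higher and 0 lower, beside 5888 and 261 of all genes. The libraries did not overlap in 84 genes with 14 h above 7 h (52.6% of all genes) and in 0 with 14 h below (3.13% of all genes). The median log2 change was 0.75 for the set and 0.83 for all genes. Without library 14 h E the count of higher calls was 50 of 114, beside 4174 of 9419 for all genes. With 42 h D in the fit, which shares 1 estimate of the spread among all groups, it was 30. All genes then had 3030 of 9444. The split depends on the scaling, and the whole table moved on this step. Both rescalings make the libraries alike and assume that most genes do not change, while the table holds only genes selected as different. A direction that turned under them is relative to the table and was in part fixed by the method. Median-ratio rescaling brought the median of all genes to 0.27 and called 33 of the set higher and 4 lower. Of the 9443 genes it called 2974 higher and 1183 lower. Quantile normalization brought that median to -0.17 and called 2 higher and 41 lower, beside 1584 and 2395 of all genes. Changes are therefore to be read against the median of all genes, beside which the median of the set lay close under each of the 3 scalings, at 0.28 under median-ratio rescaling and -0.30 under quantile normalization.

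The 24 h libraries gave changes in both directions. At 24 h against 14 h, 11 genes were called higher, where 10.6% of all genes were, and 16 lower, where 18.6% were. Libraries did not overlap in 9 genes that were higher (10.6% of all genes) and 17 that were lower (16.6%). The median change was -0.23 for the set and -0.13 for all genes. Median-ratio rescaling called 10 higher and 20 lower, beside 820 and 1909 of the 9443 genes. Quantile normalization called 25 higher and 7 lower, beside 2011 and 1333. Without library 14 h C, 8 genes were called higher and 9 lower, beside 740 and 1444 of 9423. With 42 h D in the fit 0 and 3 were called, beside 84 and 979 of 9444. From the sample-sheet numbers in the labels 2 sequencing runs were inferred, 1 with the letters A and B and 1 with C, D and E. The median difference of the set was 0.11 within A and B and -0.54 within C, D and E, beside 0.05 and -0.29 for all genes. Of the 27 genes called, 26 kept their direction within A and B and 27 within C, D and E. In the other comparisons every called gene kept its direction within both, where A and B hold 1 quiescent library. The genes were called on these same libraries, so the kept directions were largely fixed in advance and are no independent evidence.

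From 24 h to hatching the set rose again with the table. At 42 h against 24 h, 87 genes were called higher, where 67.3% of all genes were, and 3 lower, where 5.14% were. The 87 hold all 31 genes that passed the filter only through 42 h, and 56 of the other 84. Libraries did not overlap in 71 genes, all higher at 42 h (50.6% of all genes). The median change was 1.30 for the set and 1.41 for all genes. With 42 h D in the fit, 55 genes were called higher and 4 lower, beside 4171 and 368 of 9444. Median-ratio rescaling brought the median of all genes to 0.31 and that of the set to 0.30, with 41 called higher and 19 lower. Of the 9443 genes it called 3282 higher and 1556 lower. Quantile normalization brought the medians to -0.05 and -0.12, with 22 higher and 28 lower, beside 2100 and 2228 of all genes. At 24 h and 42 h the share of the set called lay near the share of all genes, so these counts are no result about the set. In the main fit it was below that share at 7 h and above it at 14 h, and neither difference was tested. At 14 h it was also above under edgeR. It was not above without 14 h E, with 42 h D in the fit or under either rescaling.

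**Figure D3:**
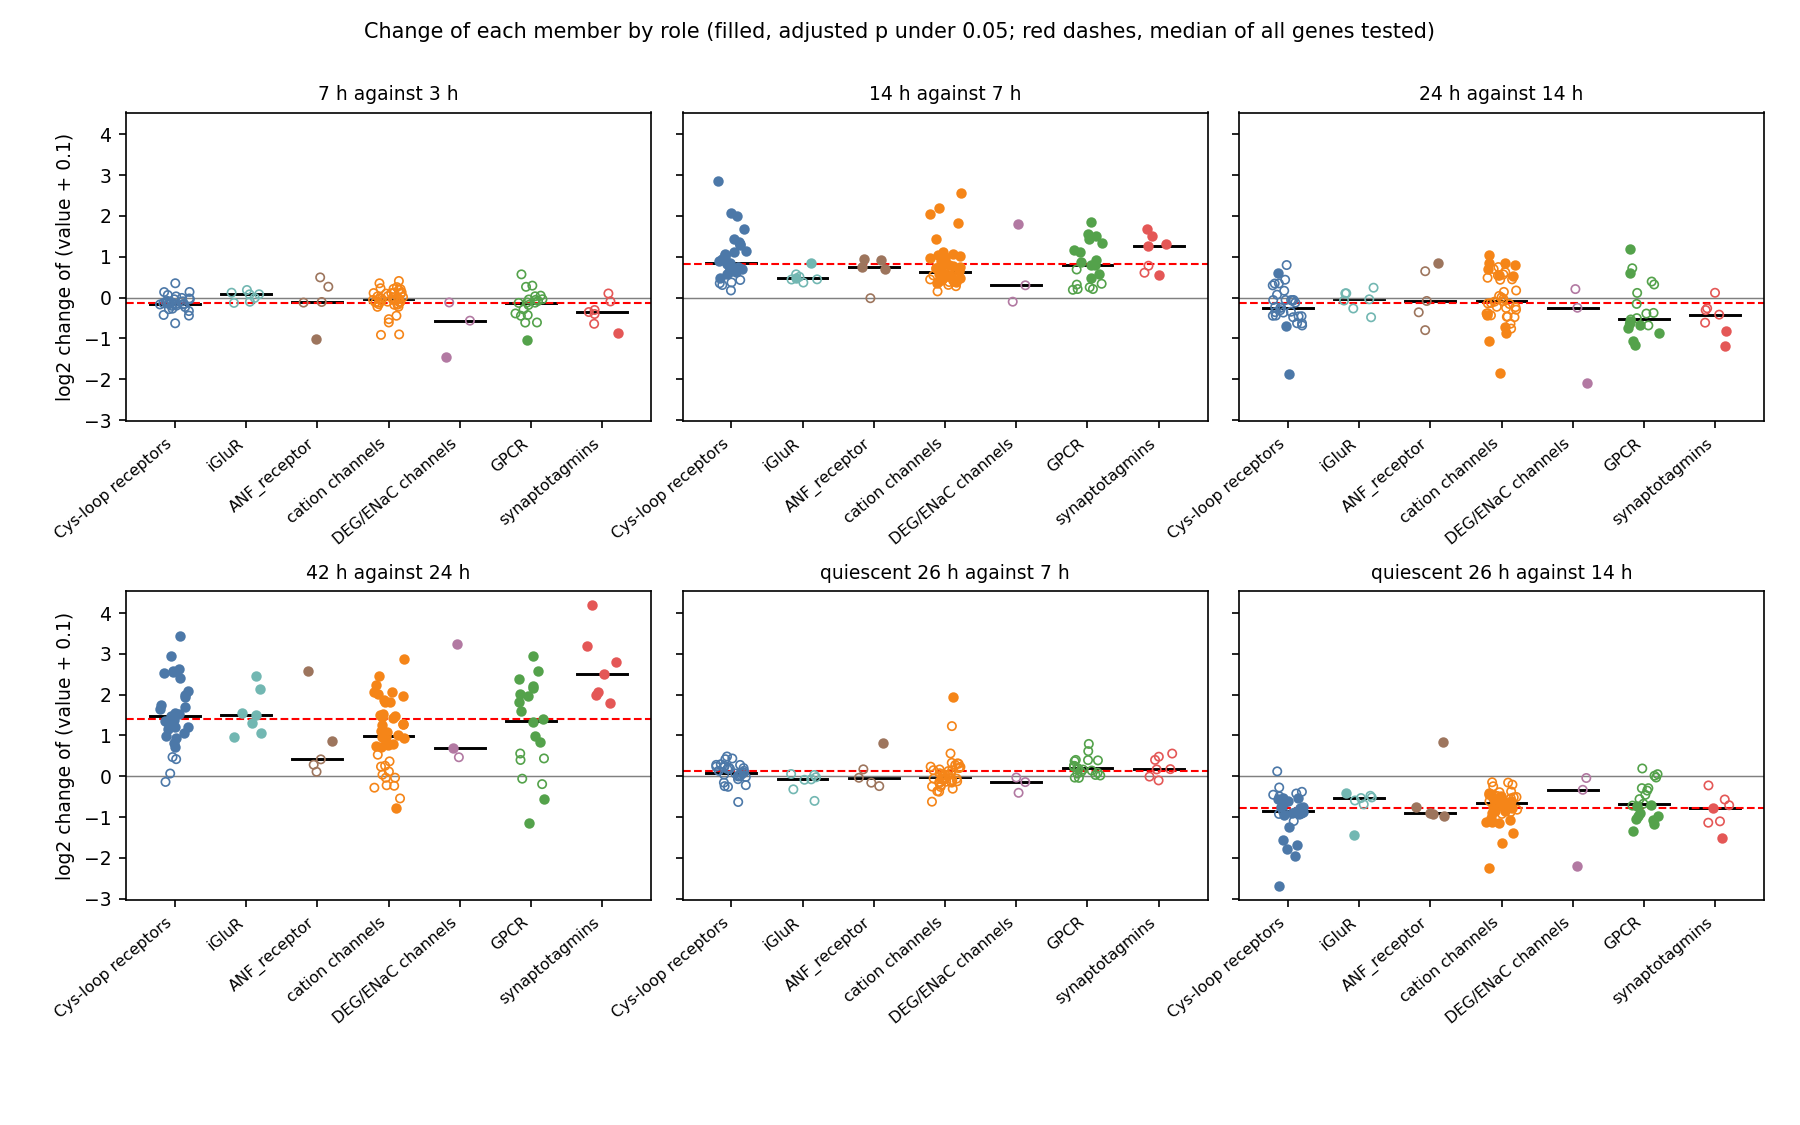
Log2 change of each tested gene on the scale of log2(value + 0.1), by role, in the 6 comparisons; filled points have a limma adjusted p under 0.05, open points do not, and red dashes mark the median of all genes tested. At 42 h against 24 h, 87 of 115 points are filled above 0 around a median of 1.30, beside 1.41 for all genes.

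**Figure D4:**
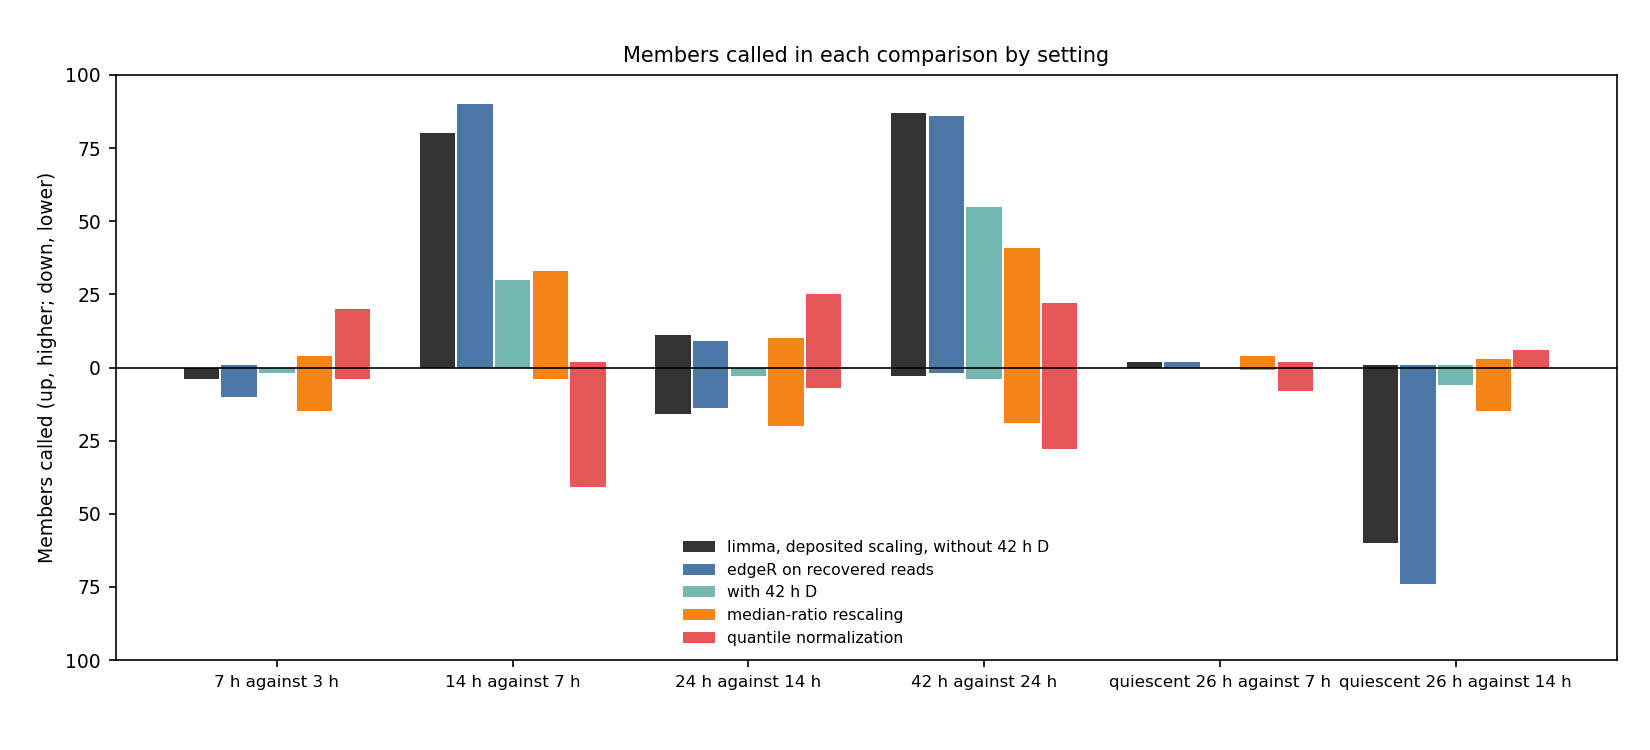
Number of genes of the set called higher (bars upward) and lower (bars downward) in each comparison under each setting shown in the legend. At 14 h against 7 h the bars turn round between the deposited scaling, with 80 higher and 0 lower, and quantile normalization, with 2 higher and 41 lower. Of all 9443 genes, 5209 were called higher and 282 lower on the deposited scaling, and 1584 and 2395 under quantile normalization.

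Cys-loop receptors were highest before hatching. At 42 h, 30 of the 31 had their highest stage mean, as did 73.5% of all genes tested. On the deposited scale 27 were called higher at 42 h than at 24 h, beside 67.3% of all genes. Of these 27, 8 had passed the filter only through 42 h. For the 31 receptors the median change was 1.49, beside 1.41 for all genes. It was 0.42 under median-ratio rescaling and turned to -0.09 under quantile normalization, beside 0.31 and -0.05 for all genes. At 14 h, 26 of 31 were called higher than at 7 h, beside 55.2% of all genes, with a median of 0.86, 0.33 and -0.20 under the 3 scalings, where all genes had 0.83, 0.27 and -0.17. No difference from all genes was tested. At 24 h, 1 was called higher than at 14 h and 2 lower, beside 10.6% and 18.6% of all genes. Grouping by the name of the match, which was done with the values in view, 13 genes matched acetylcholine receptors, 7 glutamate-gated chloride channels, 6 GABA receptors and 5 glycine receptors.

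All 13 acetylcholine receptor matches were called higher at 42 h than at 24 h, beside 67.3% of all genes. Of the 13, 4 had passed the filter only through 42 h, and the difference from all genes was not tested. The summed value of the 13 ran from 29.6 to 54.5 at 42 h, against 2.88 to 8.62 at 24 h, and was 0.633 in 42 h D. The median change was 1.69, and stayed above 0 under median-ratio rescaling (0.58, 9 called higher) and quantile normalization (0.12, 4 called higher). These rescalings called 3282 and 2100 of all 9443 genes higher. All genes had medians of 1.41, 0.31 and -0.05. Nicotinic receptors are the channels by which acetylcholine, the main fast excitatory transmitter of the insect central nervous system, acts. DN21732_c0_g1, which matched a Drosophila nicotinic subunit (ACH4_DROME), had 4.16, 3.92, 10.5 and 3.16 at 42 h, against 0.745, 0.342, 0.59 and 0.064 at 24 h. The stages did not overlap, and the change was 3.44 ± 0.66 (SE, limma adjusted p = 6.6e-05), or 2.38 with 42 h D, where its value was 0.022. At 14 h DN21732_c0_g1 had 0.753, 0.823, 2.97 and 2.99, against 0.249, 0.02, 0.222, 0.018 and 0.276 at 7 h, again without overlap and with a change of 2.87 ± 0.63 (SE, limma adjusted p = 0.0005). Libraries 14 h C and E were the high ones. The fall at 24 h, where every library was under every 14 h library, was -1.87 ± 0.66 (SE, limma adjusted p = 0.036), and it was lost without 14 h C (-1.57), 14 h E (-1.57), 24 h B (-1.85) or 24 h D (-1.38).

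DN5069_c0_g1, with a match to a muscle-type subunit of Xenopus (ACHG_XENLA), had 10.4, 11.9, 16.7 and 10.1 at 42 h, against 2.46, 1.03, 1.52 and 1.22 at 24 h. The 42 h libraries were all above 10 and the 24 h libraries all below 2.5, and the change was 2.94 ± 0.38 (SE, limma adjusted p = 3.6e-07), or 1.87 with 42 h D. DN7130_c0_g1, with a match to a human neuronal subunit (ACHA2_HUMAN), was chosen after its values were seen. It had 12.7, 9.84, 16.6 and 11.8 at 42 h, against 3.79, 2.1, 1.87 and 1.14 at 24 h. The stages did not overlap; the change was 2.56 ± 0.35 (SE, limma adjusted p = 7.8e-07), and with 42 h D it was 1.501 and was no longer called (limma adjusted p = 0.094). DN81804_c0_g1, with a match to human ACH10_HUMAN, a subunit known from hair cells in mammals, had 0.018, 0.009, 0.01 and 0 at 24 h, against 0.057, 0.085, 0.073 and 0.098 at 14 h. Each 24 h library was below each 14 h library, and the change was -0.70 ± 0.14 (SE, limma adjusted p = 0.00062). Its values at 24 h stood for few reads, and it had passed the filter only through 42 h.

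The 7 matches to the glutamate-gated chloride channel of Drosophila, an inhibitory channel and the target of ivermectin, were all called higher at 42 h than at 24 h, beside 67.3% of all genes. Of the 7, 3 had passed the filter only through 42 h and had to be higher there, DN43246_c0_g1 among them. Their sum ran from 3.59 to 6.67 at 42 h, against 0.456 to 1.07 at 24 h. The median change was 1.49, falling to 0.42 under median-ratio rescaling and -0.09 under quantile normalization, beside 1.41, 0.31 and -0.05 for all genes. DN43246_c0_g1 (GLUCL_DROME) had 0.334, 0.929, 1.28 and 0.428 at 42 h, against 0.036, 0.018, 0 and 0.042 at 24 h. At 24 h these values stood for few reads, and the stages did not overlap. The change was 2.62 ± 0.27 (SE, limma adjusted p = 2.1e-08), or 2.04 with 42 h D, where the gene was at 0.

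GABA and glycine receptor matches, members of the inhibitory branch in vertebrates, were counted apart. At 14 h all 6 GABA receptor matches and 4 of 5 glycine receptor matches were called higher than at 7 h, beside 55.2% of all genes. Under quantile normalization the medians were -0.19 and -0.46, beside -0.17 for all genes, a turn in part fixed by the method. At 42 h, 4 of 6 and 3 of 5 were called higher than at 24 h, beside 67.3% of all genes, and 1 of the 3 had passed the filter only through 42 h. DN4491_c0_g2 (GBRB4_CHICK) had 1.56, 1.3, 3.46 and 4.34 at 14 h, against 0.787, 0.788, 0.327, 0.22 and 0.764 at 7 h. The 14 h libraries were all above the 7 h libraries, and the change was 1.99 ± 0.46 (SE, limma adjusted p = 0.00089). DN38922_c0_g1 (GLRA3_RAT) was the Cys-loop receptor called higher at 24 h, with 0.191, 0.176, 0.232 and 0.127 at 24 h, against 0.048, 0.085, 0.082 and 0.125 at 14 h. Its change was 0.61 ± 0.19 (SE, limma adjusted p = 0.019), and the call was lost without 14 h A (0.51) or 24 h C (0.52).

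**Figure D5:**
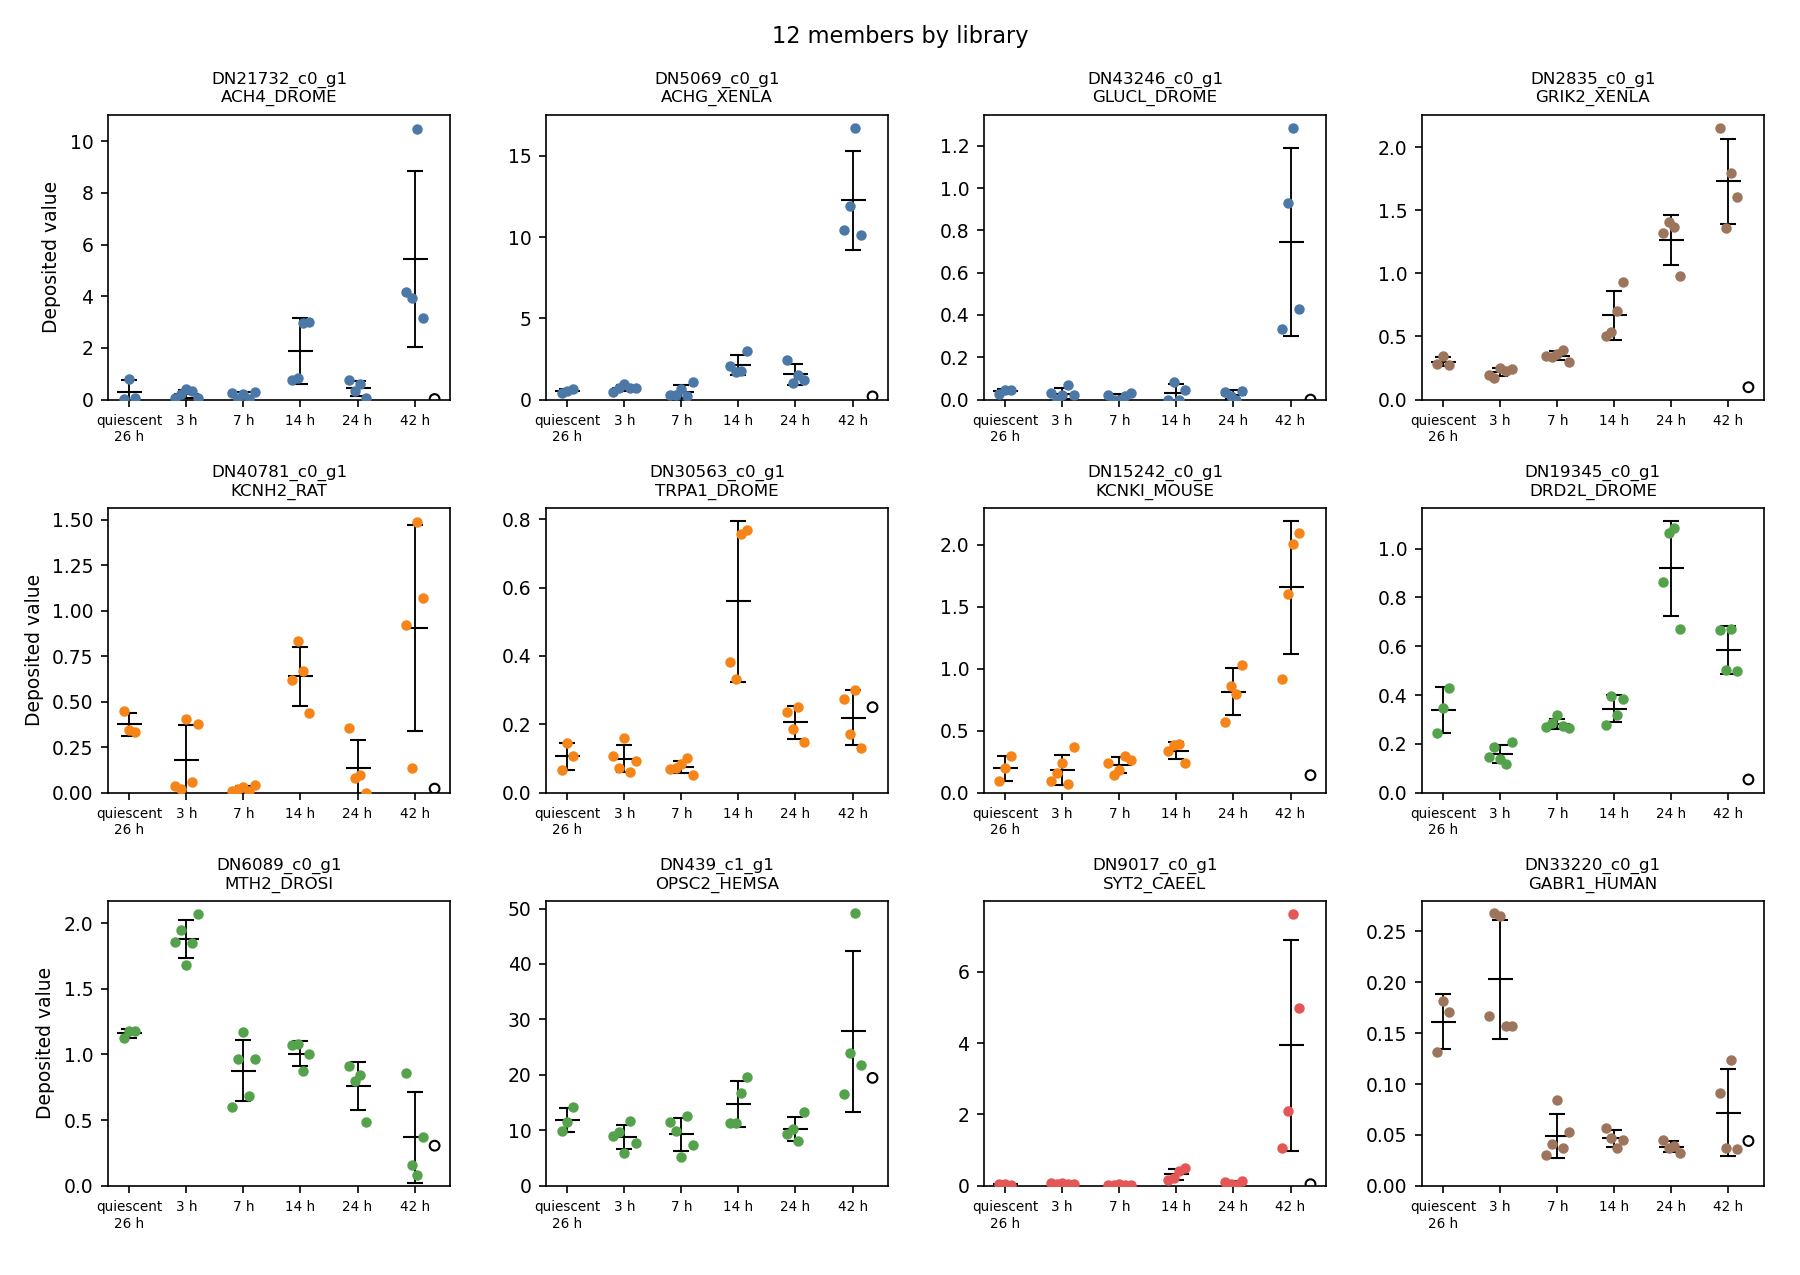
Deposited value of 12 of the genes in each library (points), by stage and in quiescent eggs; each panel is headed by the gene and its protein match, has its own axis from 0, shows the mean and SD of each group in black, and gives 42 h D as an open circle outside the mean. The acetylcholine receptor and synaptotagmin matches rise at 14 h, are lower or level at 24 h and are highest at 42 h, as in DN21732_c0_g1, with 3.16 to 10.5 at 42 h.

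All 7 genes sorted as ionotropic glutamate receptors were called higher at 42 h than at 24 h, beside 67.3% of all genes. The median change was 1.49, with 0.41 under median-ratio rescaling and -0.10 under quantile normalization, beside 1.41, 0.31 and -0.05 for all genes. Kainate receptor matches with the ANF_receptor domain (DN2835_c0_g1, DN30518_c0_g1 and DN16769_c1_g1) were sorted apart by that domain. Among these, DN30518_c0_g1 alone was called higher at 42 h. Of the 7, 4 (DN39334_c0_g1, DN42100_c0_g1, DN50329_c0_g1 and DN60998_c0_g1) had passed the filter only through 42 h and had to be higher there, so the count of 7 is no result. At 14 h 2 of the 7 were called higher than at 7 h, against 55.2% of all genes, and the difference from the other roles was not tested. DN60998_c0_g1 (GRIK2_XENLA), a kainate receptor match, had 0.233, 1.31, 1.2 and 0.749 at 42 h, against 0.082, 0.037, 0.019 and 0.096 at 24 h. The stages did not overlap, although 42 h A was far below the other 3, and the change was 2.45 ± 0.29 (SE, limma adjusted p = 1e-07), or 1.83 with 42 h D. DN25140_c0_g1 (GRIK4_RAT) had 1.09, 0.709, 1.18 and 1.46 at 42 h, against 0.291, 0.176, 0.097 and 0.149 at 24 h. The lowest 42 h library was above the highest 24 h library, and the change was 2.13 ± 0.26 (SE, limma adjusted p = 1.4e-07), or 1.45 with 42 h D.

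Matches to co-receptors of the ionotropic receptor family were also in the set. In Drosophila IR25a is a broadly used co-receptor for smell, taste and temperature, and IR93a works with it in sensing temperature and humidity. DN50329_c0_g1 (IR25A_DROME) had 0.101, 0.33, 0.455 and 0.202 at 42 h, against 0, 0.018, 0.019 and 0.042 at 24 h. Library 42 h A was the lowest of its stage and was still above 24 h, and the change was 1.55 ± 0.22 (SE, limma adjusted p = 1.3e-06), or 1.35 with 42 h D. DN53471_c0_g1 (IR93A_DROME), named after its values were seen, had 0.303, 0.575, 1.41 and 0.261 at 42 h, against 0.109, 0.25, 0.097 and 0.064 at 24 h. The change was 1.49 ± 0.34 (SE, limma adjusted p = 0.00042); with 42 h D it was 0.995 and not called (limma adjusted p = 0.07), and under quantile normalization it was -0.096. The 2 genes called at 14 h were DN39707_c0_g1, a match to a human NMDA receptor subunit (NMDE3_HUMAN), and DN39334_c0_g1 (GRIK2_HUMAN). DN39707_c0_g1 had 0.267, 0.208, 0.411 and 0.331 at 14 h, against 0.13, 0.164, 0.137, 0.11 and 0.074 at 7 h. Its stages did not overlap, the change was 0.85 ± 0.34 (SE, limma adjusted p = 0.035), and the call was lost without 7 h D (0.83), 7 h E (0.76), 14 h C (0.73) or 14 h E (0.81). The stages overlapped in DN39334_c0_g1, which had 0.048, 0.028, 0.046 and 0.08 at 14 h, against 0, 0.01, 0.032, 0 and 0 at 7 h, with a change of 0.47 ± 0.14 (SE, limma adjusted p = 0.0082).

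The ANF_receptor domain is the extracellular ligand-binding fold shared by glutamate receptors and the metabotropic GABA receptor, and its 5 genes took separate courses. DN2835_c0_g1 (GRIK2_XENLA) had a higher mean at each later stage. It had 1.32, 1.41, 1.36 and 0.977 at 24 h, against 0.505, 0.539, 0.703 and 0.93 at 14 h, without overlap and with a change of 0.85 ± 0.23 (SE, limma adjusted p = 0.008). At 14 h it was also above each of the 7 h values of 0.349, 0.338, 0.359, 0.394 and 0.297, with a change of 0.75 ± 0.22 (SE, limma adjusted p = 0.0058) that turned to -0.30 under median-ratio rescaling and -0.79 under quantile normalization. DN31407_c0_g1, a match to a mouse metabotropic GABA receptor subunit (GABR1_MOUSE), had 0.425, 0.599, 2.45 and 0.784 at 42 h, against 0.091, 0.037, 0.077 and 0.042 at 24 h. All 4 libraries of 42 h were above the 24 h libraries, and the change was 2.57 ± 0.33 (SE, limma adjusted p = 3.5e-07), or 1.98 with 42 h D. Its rise at 14 h was 0.94 ± 0.31 (SE, limma adjusted p = 0.014) and was lost without 14 h E (0.81). DN30518_c0_g1 (GRIK2_XENLA) was called higher at 14 h than at 7 h, by 0.92 ± 0.20 (SE, limma adjusted p = 0.00061), and at 42 h than at 24 h, by 0.86 ± 0.22 (SE, limma adjusted p = 0.0011). With 42 h D the change at 42 h was 0.60 and not called (limma adjusted p = 0.086). Under quantile normalization the 2 changes turned to -0.24 and -0.43.

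The other metabotropic GABA receptor match, DN33220_c0_g1 (GABR1_HUMAN), had its highest stage mean at 3 h. It had 0.03, 0.041, 0.084, 0.037 and 0.053 at 7 h, against 0.167, 0.268, 0.265, 0.157 and 0.157 at 3 h. Every 7 h library was below every 3 h library, and the change was -1.01 ± 0.16 (SE, limma adjusted p = 4.6e-05). It remained between 0.032 and 0.124 in the later stages, 42 h D included.

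Among the 44 cation channels, potassium channels were the largest share, with 10 two-pore channels, 7 of the Shab, Shaw and Shaker kinds, 4 BK channels and 4 others by the name of their match. At 42 h, 29 of the 42 tested were called higher than at 24 h and 1 lower, beside 67.3% and 5.14% of all genes, so the count is near that of the table. Of the 29, 11 had passed the filter only through 42 h. Their median change was 0.99, beside 1.41 for all genes. Median-ratio rescaling gave 9 higher and 12 lower around a median of 0.13, and quantile normalization gave 5 higher and 14 lower around -0.30. All genes had medians of 0.31 and -0.05, with 3282 and 2100 of 9443 called higher and 1556 and 2228 lower. At 14 h, 29 were called higher than at 7 h, beside 55.2% of all genes. Their medians were 0.63, 0.21 and -0.38 under the 3 scalings, beside 0.83, 0.27 and -0.17 for all genes. At 24 h, 7 were called higher than at 14 h and 5 lower, beside 10.6% and 18.6% of all genes.

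Two-pore channels, which carry the leak current that sets the resting potential, supplied 4 of the 7 higher calls at 24 h. Their median change at 24 h was 0.27, and was 0.16 under median-ratio rescaling and 0.51 under quantile normalization, with 3 and 5 called higher. All genes had medians of -0.13, -0.17 and 0.13, and the rescalings called 820 and 2011 of 9443 higher. The difference was not tested. DN15242_c0_g1 (KCNKI_MOUSE) had 0.572, 0.859, 0.794 and 1.03 at 24 h, against 0.334, 0.388, 0.393 and 0.241 at 14 h. No library overlapped, the change was 1.05 ± 0.32 (SE, limma adjusted p = 0.018), and the call was lost without 14 h E (0.93). DN17812_c0_g1 (TWK7_CAEEL), named after its values were seen, had 0.582, 0.545, 0.474 and 0.436 at 24 h, against 0.219, 0.189, 0.219 and 0.34 at 14 h. The 24 h libraries were all higher, with a change of 0.85 ± 0.25 (SE, limma adjusted p = 0.014). DN17841_c0_g1 (SUP9_CAEEL), likewise named with its values in view, had 0.436, 0.462, 0.494 and 0.329 at 24 h, against 0.172, 0.161, 0.219 and 0.259 at 14 h, again without overlap, and changed by 0.81 ± 0.24 (SE, limma adjusted p = 0.015). DN25131_c0_g1 (KCNK9_HUMAN) spread widely within its stages. It had 2.74, 0.905, 13.5 and 3.27 at 42 h, against 0.645, 0.129, 0.174 and 0.892 at 24 h, and the change was 2.86 ± 0.68 (SE, limma adjusted p = 0.00062). Library 42 h C alone was above 4, and with 42 h D the change was 1.91 and not called (limma adjusted p = 0.068). At 14 h it had 1.26, 0.17, 0.548 and 1.5, against 0.04, 0.082, 0.095, 0.027 and 0.127 at 7 h, and the change was 2.21 ± 0.64 (SE, limma adjusted p = 0.0057).

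Voltage-gated potassium channels of the Shab, Shaw and Shaker kinds, which repolarise the membrane after an action potential, were called higher in 6 of 7 genes both at 14 h and at 42 h, beside 55.2% and 67.3% of all genes, and 1 of the 7 had passed the filter only through 42 h. DN29139_c0_g1, a match to Drosophila Shab (KCNAB_DROME), had 0.425, 0.721, 1.48 and 0.844 at 42 h, against 0.154, 0.065, 0.087 and 0.064 at 24 h. The lowest value at 42 h exceeded the highest at 24 h, and the change was 2.24 ± 0.23 (SE, limma adjusted p = 2e-08), or 1.67 with 42 h D. DN36401_c0_g1 (SLO_DROME) matched the BK channel, which opens with calcium and voltage together. It had 0.505, 0.322, 0.192 and 1 at 14 h, against 0, 0, 0.053, 0 and 0.138 at 7 h. Stages were apart, 3 of the 7 h libraries were at 0, and the change was 2.05 ± 0.49 (SE, limma adjusted p = 0.0012).

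DN40781_c0_g1 (KCNH2_RAT), a match to the ERG potassium channel that repolarises the mammalian heart, moved in several comparisons. It had 0.62, 0.832, 0.667 and 0.438 at 14 h, against 0.01, 0.02, 0.032, 0.009 and 0.042 at 7 h. The change of 2.57 ± 0.49 (SE, limma adjusted p = 0.00013) separated the stages fully. At 24 h it had 0.354, 0.083, 0.097 and 0, below every 14 h library, with a change of -1.85 ± 0.52 (SE, limma adjusted p = 0.0094). At 42 h its values of 0.92, 0.135, 1.49 and 1.07 overlapped those of 24 h.

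Calcium channels admit the calcium that triggers vesicle fusion, and sodium channels carry the upstroke of the action potential. Of 7 voltage-gated calcium channel matches, 2 were called higher at 24 h than at 14 h, beside 10.6% of all genes. At 42 h against 24 h, 2 were called higher and 1 lower, beside 67.3% and 5.14% of all genes. The median was -0.22 and stayed below 0 under median-ratio rescaling (-0.61, 5 called lower) and quantile normalization (-1.07, 5 called lower). All genes had medians of 1.41, 0.31 and -0.05, and the rescalings called 1556 and 2228 of 9443 lower. The difference was not tested. Both genes called higher at 42 h had passed the filter only through 42 h. The one called lower, DN11488_c1_g1 (CAC1D_DROME), was named after its values were seen. It had 0.202, 0.024, 0.062 and 0.071 at 42 h, against 0.218, 0.259, 0.29 and 0.106 at 24 h. Library 42 h A lay within the 24 h range and the other 3 below it, and the change was -0.79 ± 0.25 (SE, limma adjusted p = 0.007), or -0.92 with 42 h D. DN11488_c0_g1, from the same assembly cluster and with the same match, had 1.07, 0.856, 1.21 and 1.39 at 42 h, against 0.691, 0.924, 0.813 and 0.584 at 24 h, and was not called. The 2 may be pieces of 1 gene or may share reads, so their values are uncertain. DN59716_c0_g1 matched a Drosophila protein named as a sodium channel (SCN60_DROME), and which ion it carries was not tested. It had 0.587, 1.94, 2.42 and 1.22 at 42 h, against 0.182, 0.148, 0.242 and 0.117 at 24 h. Both ranges were apart, and the change was 2.45 ± 0.28 (SE, limma adjusted p = 7.5e-08), or 1.84 with 42 h D.

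TRPA channels and pyrexia sense heat and noxious chemicals in Drosophila. Of 6 matches, 5 were called higher at 14 h than at 7 h, 4 lower at 24 h than at 14 h, and 5 higher at 42 h than at 24 h, of which 2 had passed the filter only through 42 h. All genes were called higher in 55.2% at 14 h, lower in 18.6% at 24 h and higher in 67.3% at 42 h. The median fall at 24 h was -0.60, and stayed below 0 under median-ratio rescaling (-0.53, 4 called lower) and quantile normalization (-0.29, 3 called lower). All genes had medians of -0.13, -0.17 and 0.13, and the rescalings called 1909 and 1333 of 9443 lower. The difference was not tested. DN30563_c0_g1 (TRPA1_DROME) had its highest mean at 14 h. It had 0.382, 0.331, 0.758 and 0.769 at 14 h, against 0.07, 0.072, 0.084, 0.101 and 0.053 at 7 h, a change of 1.84 ± 0.24 (SE, limma adjusted p = 1.5e-06) without overlap, which was named with its values in view. At 24 h it had 0.236, 0.185, 0.252 and 0.149, below every 14 h library, with a change of -1.05 ± 0.25 (SE, limma adjusted p = 0.0031). Its 42 h values of 0.273, 0.171, 0.3 and 0.131 overlapped those of 24 h.

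The 3 DEG/ENaC channels, a family of sodium channels gated by peptides, acid or touch in other animals, carried only the ASC domain and no match. DN94333_c0_g1 had 0.03, 0.102, 0.021, 0.055 and 0.138 at 7 h, against 0.274, 0.505, 0.173, 0.501 and 0.407 at 3 h. Each 7 h library was below each 3 h library, and the change was -1.47 ± 0.23 (SE, limma adjusted p = 4.6e-05). DN78834_c0_g1 swung between libraries. It had 0.111, 1.78, 1.75 and 1.66 at 42 h, against 0.027, 0, 0.019 and 0.011 at 24 h, a change of 3.23 ± 0.71 (SE, limma adjusted p = 0.00029), or 2.55 with 42 h D. Library 42 h A was far below the other 3 and yet above 24 h. At 14 h it had 0.362, 1.28, 0.393 and 0.08, all above 24 h, and the fall of -2.10 ± 0.71 (SE, limma adjusted p = 0.028) was lost on leaving out 14 h A (-2.12), 14 h B (-1.60), 14 h C (-2.09), 24 h B (-2.04) or 24 h D (-2.09).

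Of the 20 receptors with a 7-transmembrane domain, 13 were called higher at 42 h than at 24 h and 2 lower, beside 67.3% and 5.14% of all genes, so the count of higher calls is near that of the table. Of the 13, 6 had passed the filter only through 42 h. Among the 20 the median change was 1.36, with 0.34 under median-ratio rescaling and 0.08 under quantile normalization. All genes had 1.41, 0.31 and -0.05. At 14 h, 13 were called higher than at 7 h, beside 55.2% of all genes. Their medians were 0.80, 0.35 and -0.09 under the 3 scalings, beside 0.83, 0.27 and -0.17 for all genes. At 24 h, 2 were called higher than at 14 h and 6 lower, beside 10.6% and 18.6% of all genes. Opsins, the light-sensing receptors of photoreceptor cells, gave 7 of the 20, and 6 of these matched a compound-eye opsin of the crab Hemigrapsus sanguineus (OPSC2_HEMSA). Genes so alike may share reads, so their separate values are uncertain. All 7 opsin matches were called higher at 42 h than at 24 h, beside 67.3% of all genes, and 2 of the 7 had passed the filter only through 42 h. The median change of the 7 was 1.83 and stayed above 0 under median-ratio rescaling (0.58, 6 called higher) and quantile normalization (0.28, 1 called higher). These rescalings called 3282 and 2100 of all 9443 genes higher. All genes had medians of 1.41, 0.31 and -0.05.

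Most of the summed opsin value came from DN439_c1_g1 (OPSC2_HEMSA), chosen after its values were seen, which had reads at every stage. It had 16.6, 24, 49.2 and 21.8 at 42 h, against 9.34, 10.3, 8.04 and 13.3 at 24 h. The stages did not overlap, and the change was 1.33 ± 0.33 (SE, limma adjusted p = 0.001). It was 1.26 with 42 h D, at 19.5 in that library, and -0.013 under median-ratio rescaling. From 3 h to 24 h its libraries lay between 5.21 and 19.5. DN13864_c0_g1 (OPSC2_HEMSA) began near 0. It had 1.52, 4.11, 4.2 and 2.31 at 42 h, against 0.463, 0.323, 0.213 and 0.17 at 24 h, without overlap and with a change of 2.94 ± 0.32 (SE, limma adjusted p = 3.2e-08), or 2.13 with 42 h D. At 14 h it had 0.362, 0.407, 0.685 and 0.626, against 0.06, 0.051, 0.095, 0.055 and 0.085 at 7 h. The change was 1.84 ± 0.30 (SE, limma adjusted p = 2.4e-05), and every 14 h library was the higher. A rise at 14 h was also called in DN13108_c0_g1 (OPSC2_HEMSA), which had 0.343, 0.312, 0.539 and 0.581 at 14 h, against 0.07, 0.082, 0.148, 0.037 and 0.18 at 7 h, by 1.43 ± 0.30 (SE, limma adjusted p = 0.00034), and in DN18025_c0_g1, a match to an opsin of the moth Manduca sexta (OPS1_MANSE), by 1.51 ± 0.31 (SE, limma adjusted p = 0.00032).

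Adhesion receptors, among them latrophilins, which act at synapses, gave 4 matches. All 4 were called higher at both 14 h and 42 h, beside 55.2% and 67.3% of all genes. The medians of the 4 were 0.84, 0.58 and 0.08 at 14 h and 2.17, 0.98 and 0.57 at 42 h under the 3 scalings. Those of all genes were 0.83, 0.27 and -0.17 at 14 h and 1.41, 0.31 and -0.05 at 42 h. The difference was not tested. Of the 4, 3 had passed the filter only through 42 h, including DN25348_c0_g1 and DN27671_c0_g2, and had to be higher there. DN25348_c0_g1 (AGRL3_RAT) had 0.293, 0.942, 1.31 and 0.677 at 42 h, against 0.055, 0.028, 0.019 and 0.053 at 24 h. Library 42 h A was the lowest of its stage, no library overlapped, and the change was 2.57 ± 0.25 (SE, limma adjusted p = 7e-09), or 2.05 with 42 h D. DN27671_c0_g2 (AGRD1_HUMAN) changed by 2.38 ± 0.29 (SE, limma adjusted p = 1.9e-07), or 1.92 with 42 h D. DN25320_c0_g1 (AGRL1_HUMAN) was called lower at 24 h than at 14 h, by -0.75 ± 0.26 (SE, limma adjusted p = 0.033), although 24 h A, at 0.145, lay within the 14 h range, and the call was lost on leaving out any of 5 libraries. Outside the adhesion receptors, DN58322_c0_g1 (GUTR1_DROME, with a 7tm_1 domain) was also called lower at 24 h, by -0.86 ± 0.20 (SE, limma adjusted p = 0.0022). It had 0.009, 0.065, 0.048 and 0.032 at 24 h, against 0.105, 0.104, 0.174 and 0.233 at 14 h, without overlap.

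Receptor genes with the opposite course were few. DN19345_c0_g1, a match to the D2-like dopamine receptor of Drosophila (DRD2L_DROME), had 0.863, 1.06, 1.08 and 0.669 at 24 h, against 0.277, 0.397, 0.32 and 0.385 at 14 h. The 24 h libraries were all higher, with a change of 1.18 ± 0.22 (SE, limma adjusted p = 0.00033). At 42 h it had 0.667, 0.501, 0.672 and 0.499, partly within the 24 h range. The fall of -0.56 ± 0.22 (SE, limma adjusted p = 0.025), or -0.99 with 42 h D, was lost without 24 h B (-0.49), 24 h C (-0.49), 42 h B (-0.51) or 42 h E (-0.50). DN6089_c0_g1, a match to a methuselah-like receptor of Drosophila simulans (MTH2_DROSI), was highest at cleavage. It had 0.598, 0.962, 1.17, 0.686 and 0.966 at 7 h, against 1.85, 1.95, 1.68, 1.85 and 2.07 at 3 h. No 7 h library reached the 3 h range, and the change of -1.05 ± 0.32 (SE, limma adjusted p = 0.026) was lost without 3 h B (-1.04), 3 h E (-1.02), 7 h A (-0.94) or 7 h D (-0.98). At 42 h it had 0.86, 0.159, 0.083 and 0.368, against 0.909, 0.795, 0.842 and 0.489 at 24 h. Library 42 h A lay within the 24 h range and the change was -1.14 ± 0.36 (SE, limma adjusted p = 0.0068), or -1.12 with 42 h D. The 42 h values of these 2 genes were named with their values in view.

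All 7 synaptotagmins were called higher at 42 h than at 24 h, beside 67.3% of all genes, with a median change of 2.51, beside 1.41 for all genes. One of them, DN33032_c0_g1, had passed the filter only through 42 h and had to be higher there. The median of the 7 was 1.16 under median-ratio rescaling, with 5 called higher, and 0.71 under quantile normalization, with 4 called higher. All genes stood at 0.31 and -0.05, with 3282 and 2100 of 9443 called higher. At 14 h, 5 of 7 were called higher than at 7 h, beside 55.2% of all genes. The medians were 1.27, 0.54 and 0.01, beside 0.83, 0.27 and -0.17 for all genes. At 24 h, 2 were called lower than at 14 h, beside 18.6% of all genes. None of these differences from all genes was tested. One of the 7, DN70481_c0_g1, had only plant matches, a lipid-binding protein first (CLB_ARATH) and then SYT5_ARATH. Whether it is a vesicle calcium sensor was not tested, and every count and median of the 7 includes it. The largest change of the set at 42 h on the deposited scale was that of DN9017_c0_g1 (SYT2_CAEEL), which had 1.07, 2.1, 7.61 and 4.98 at 42 h, against 0.1, 0.055, 0.029 and 0.127 at 24 h. Every 42 h library was above 1 and every 24 h library below 0.2, although within 42 h the values spread widely. The change was 4.19 ± 0.39 (SE, limma adjusted p = 3.4e-09), or 3.30 with 42 h D, at 0.044. It had 0.162, 0.208, 0.411 and 0.492 at 14 h, against 0.02, 0.02, 0.042, 0.018 and 0.021 at 7 h, a change of 1.67 ± 0.37 (SE, limma adjusted p = 0.00052) without overlap. The fall at 24 h, -1.19 ± 0.39 (SE, limma adjusted p = 0.024), also separated the stages, and was lost without 14 h C (-1.06), 14 h E (-0.99), 24 h B (-1.13) or 24 h C (-1.04).

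DN21152_c0_g1 (SYT2_CAEEL) had 0.394, 2.35, 2.51 and 1.06 at 42 h, against 0.082, 0.102, 0 and 0.042 at 24 h. DN33032_c0_g1 (SYT5_MOUSE) had 0.374, 0.868, 1.18 and 0.927 at 42 h, against 0.082, 0, 0 and 0.042 at 24 h. In both genes 42 h A was the lowest of the 4 and no library overlapped. The changes were 3.19 ± 0.39 (SE, limma adjusted p = 1.6e-07) for DN21152_c0_g1 and 2.80 ± 0.23 (SE, limma adjusted p = 1.1e-09) for DN33032_c0_g1, or 2.47 and 2.23 with 42 h D. DN17105_c0_g1, a match to Drosophila synaptotagmin 1 (SY65_DROME), the fast calcium sensor of transmitter release, had 0.324, 0.681, 1.01 and 1.33 at 14 h, against 0.249, 0.102, 0.422, 0.055 and 0.329 at 7 h. The stages overlapped, and the change of 1.51 ± 0.54 (SE, limma adjusted p = 0.021) was lost without 7 h D (1.27), 14 h C (1.38) or 14 h E (1.26). DN12908_c0_g1 (SYT4_HUMAN) had 1.55, 0.728, 0.785 and 0.957 at 14 h, against 0.149, 0.573, 0.528, 0.156 and 0.435 at 7 h, without overlap. Its change was 1.31 ± 0.52 (SE, limma adjusted p = 0.033), a call lost without 7 h A (1.12), 7 h D (1.13), 14 h A (1.10) or 14 h E (1.32).

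DN67549_c0_g1 (SYT7_MOUSE) was called in every stage comparison. It had 0.137, 0.052, 0.15, 0.079 and 0.167 at 3 h, 0.04, 0, 0.021, 0 and 0.021 at 7 h, 0.114, 0.095, 0.21 and 0.358 at 14 h, 0.082, 0.046, 0.058 and 0.042 at 24 h and 0.475, 0.33, 0.662 and 0.357 at 42 h. The libraries of 3 h and 7 h, of 7 h and 14 h, of 14 h and 24 h, and of 24 h and 42 h did not overlap. The change was -0.88 ± 0.22 (SE, limma adjusted p = 0.0063) at 7 h against 3 h. At 24 h against 14 h it was -0.83 ± 0.25 (SE, limma adjusted p = 0.014), lost without 14 h E (-0.59). At 42 h against 24 h, a change named with its value in view, it was 1.79 ± 0.25 (SE, limma adjusted p = 8.6e-07), or 1.53 with 42 h D.

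Quiescent eggs bear the same stage label as the 7 h eggs. The summed values were 19.01, 24.9 and 25.5 in quiescent eggs, against the 16.1 to 19.6 of 7 h, so that quiescent C and D lay above every 7 h library and quiescent A within their range. Without DN439_c1_g1 they were 9.22, 13.5 and 11.3 in quiescent eggs, against 7.07 to 12.2 at 7 h. Across the 117 genes the rank correlations of quiescent A, C and D were 0.79, 0.76 and 0.81 with 3 h, 0.72, 0.80 and 0.75 with 7 h, and 0.69, 0.82 and 0.73 with 24 h. Quiescent A and D were thus closer to 3 h than to 7 h by this measure, and among the stages quiescent C was closest to 24 h. Over all genes the quiescent libraries had 0.85, 0.87 and 0.89 with 3 h, and 0.83, 0.87 and 0.86 with 7 h. With 24 h they had 0.76, 0.78 and 0.78. Across the 117 genes even library 7 h C was closer to 24 h (0.88) than to 7 h (0.86), so this ranking cannot place a library at a stage. Against 7 h, 2 genes were called higher in quiescent eggs, where 3.15% of all genes were, and 0 lower, where 0.265% were, which is 3.41% of all genes in either direction. At an unadjusted p under 0.05 the counts were 4 higher and 0 lower, beside 1311 of the 9443 genes in either direction. With edgeR, 2 were called higher and 0 lower, beside 617 and 38 of all genes. Libraries did not overlap in 10 genes that were higher (15.1% of all genes) and 4 that were lower (3.74%). The median change was 0.06 for the set and 0.14 for all genes. Without quiescent C, without quiescent D or with 42 h D in the fit, limma called 0. Among all genes it then called 147, 82 and 28 higher and 4, 9 and 1 lower. These values do not show that the set was equal in both groups. The quiescent mean exceeded the 7 h mean in 72 of the 117 genes, and the like count over all genes was not made.

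The genes called higher in quiescent eggs than at 7 h were DN33220_c0_g1 and DN40781_c0_g1. DN33220_c0_g1 (GABR1_HUMAN) had 0.131, 0.182 and 0.171 in quiescent eggs, against 0.03, 0.041, 0.084, 0.037 and 0.053 at 7 h. The groups did not overlap and the quiescent values reached into the 3 h range of 0.157 to 0.268. The change was 0.82 ± 0.19 (SE, limma adjusted p = 0.014), lost without quiescent C (0.76) or quiescent D (0.79). DN40781_c0_g1 (KCNH2_RAT) had 0.449, 0.345 and 0.332 in quiescent eggs, against 0.01, 0.02, 0.032, 0.009 and 0.042 at 7 h. Every quiescent library was several times higher, with a change of 1.95 ± 0.53 (SE, limma adjusted p = 0.041), and the call was lost on leaving out any of 10 libraries, with changes of 1.85 to 2.02.

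Against organogenesis, quiescent eggs were low in most of the set on the deposited scale, where the median change of all genes was below 0 too. The mean was under the 14 h mean in 113 of the 117 genes. The like count over all genes was not made, so this one is no result about the set. At quiescent 26 h against 14 h, 60 genes were called lower, where 41.9% of all genes were, and 1 higher, where 4.81% were. Libraries did not overlap in 82 genes that were lower (52.6% of all genes) and 2 that were higher (5.87%). The median change was -0.70 for the set and -0.77 for all genes. Median-ratio rescaling gave a median of -0.22 for the set and -0.20 for all genes, with 15 genes lower and 3 higher. Of the 9443 genes it called 1272 lower and 883 higher. Quantile normalization gave 0.08 and 0.016, with 0 lower and 6 higher, beside 747 and 1013 of all genes. Without 14 h E, quiescent A or quiescent D, 30, 34 and 37 genes were called lower, beside 2948, 2672 and 3226 of all genes. With 42 h D in the fit 6 were called lower, beside 1403. This comparison shares its 14 h libraries with the stage comparisons above.

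By role, 21 of 31 Cys-loop receptors, 21 of 42 cation channels, 9 of 20 receptors with a 7-transmembrane domain, 4 of 5 ANF_receptor genes, 2 of 7 ionotropic glutamate receptors, 2 of 7 synaptotagmins and 1 of 3 DEG/ENaC channels were called lower in quiescent eggs than at 14 h. These counts stand beside 41.9% of all genes, and no role's difference from that share was tested. DN5069_c0_g1 (ACHG_XENLA) had 0.43, 0.527 and 0.646 in quiescent eggs, against 2.1, 1.69, 1.75 and 2.97 at 14 h, without overlap and with a change of -1.79 ± 0.41 (SE, limma adjusted p = 0.0016). DN30563_c0_g1 (TRPA1_DROME) had 0.065, 0.145 and 0.108 in quiescent eggs, against 0.382, 0.331, 0.758 and 0.769 at 14 h, also without overlap, and changed by -1.63 ± 0.27 (SE, limma adjusted p = 0.00011). The acetylcholine receptor match DN21732_c0_g1 changed by -2.69 ± 0.71 (SE, limma adjusted p = 0.0046), although quiescent C, at 0.809, lay within the 14 h range. DN33220_c0_g1 was the gene called higher in quiescent eggs than at 14 h, named with its values in view, with 0.131, 0.182 and 0.171 in quiescent eggs, against 0.057, 0.047, 0.037 and 0.045 at 14 h, and a change of 0.83 ± 0.20 (SE, limma adjusted p = 0.0019).

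Genes of other roles in quiescent eggs included DN9017_c0_g1 (SYT2_CAEEL), which changed by -1.51 ± 0.42 (SE, limma adjusted p = 0.0061) against 14 h. The NMDA receptor match DN39707_c0_g1 changed by -1.45 ± 0.38 (SE, limma adjusted p = 0.0044) and the opsin match DN13108_c0_g1 by -1.18 ± 0.34 (SE, limma adjusted p = 0.0083). In each of these 3 the quiescent libraries lay below the 14 h libraries. The Shab match DN28864_c0_g1 (KCNAB_DROME) changed by -1.39 ± 0.41 (SE, limma adjusted p = 0.0088). The GABA receptor match DN31403_c0_g1 (GBRR2_BOVIN) changed by -1.95 ± 0.63 (SE, limma adjusted p = 0.015), and was not called without 14 h E (-1.50). The DEG/ENaC channel DN78834_c0_g1 changed by -2.20 ± 0.76 (SE, limma adjusted p = 0.023), a call lost without 14 h B (-1.70), quiescent A (-2.22), quiescent C (-2.16) or quiescent D (-2.22). The two-pore channel match DN25131_c0_g1 changed by -2.26 ± 0.73 (SE, limma adjusted p = 0.016), lost without 14 h E (-1.91) or quiescent A (-2.17). Among the ANF_receptor genes, DN31407_c0_g1 changed by -0.98 ± 0.36 (SE, limma adjusted p = 0.03), DN16769_c1_g1 by -0.93 ± 0.29 (SE, limma adjusted p = 0.011) and DN2835_c0_g1 by -0.91 ± 0.25 (SE, limma adjusted p = 0.0059). The call of DN31407_c0_g1 was lost without 14 h C (-0.94), 14 h E (-0.84), quiescent C (-0.90) or quiescent D (-0.90), and that of DN16769_c1_g1 without quiescent A (-0.82). For these genes quantile normalization turned the direction of DN16769_c1_g1 and DN2835_c0_g1, and median-ratio rescaling that of DN2835_c0_g1.

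A list of 60 further genes with matches to neuronal and synaptic proteins, assembled with earlier results of these data known, was set beside the set. Some of its entries are doubtful as neuronal genes, such as a plant match (NRX1_ARATH) and NETR matches with Trypsin or SRCR domains. The list also holds innexin matches (such as INX2_DROME), STX12_HUMAN and VAMP7_RAT, and whether these genes act in neurons was not tested. Of the 60, 2 (DN51373_c0_g1 and DN7949_c1_g1) are also in the protease list described further on. At 14 h, 47 of the 60 were called higher than at 7 h and 1 lower, beside 55.2% and 2.99% of all genes. The medians were 1.13, 0.49 and -0.12 under the deposited, median-ratio and quantile scalings, beside 0.83, 0.27 and -0.17 for all genes. At 24 h, 3 were called higher than at 14 h and 17 lower, beside 10.6% and 18.6% of all genes. At 42 h 49 were called higher than at 24 h and 1 lower, beside 67.3% and 5.14%. The medians at 42 h were 1.43, 0.39 and -0.02, beside 1.41, 0.31 and -0.05 for all genes. In quiescent eggs 39 were called lower than at 14 h and 1 higher, beside 41.9% and 4.81% of all genes. None of these differences from all genes was tested. Its summed value was 8.37 to 10.2 at 3 h, 4.38 to 8.84 at 7 h, 20.5 to 45.0 at 14 h, 12.7 to 25.5 at 24 h and 58.8 to 136 at 42 h, with 8.71 in 42 h D, and 6.07 to 10.8 in quiescent eggs. Of the list, DN34684_c0_g1, DN1343_c0_g1 and DN7999_c0_g1 were named with their values in view, and limma called each of them higher at 42 h than at 24 h. DN34684_c0_g1, a match to the choline acetyltransferase of Drosophila (CLAT_DROME), which makes acetylcholine, had 0.263, 0.367, 0.734 and 0.368 at 42 h, against 0.091, 0.037, 0.126 and 0.042 at 24 h. DN1343_c0_g1, a match to a nematode synaptobrevin (SYB1_CAEBR), a vesicle protein of membrane fusion, had 5.25, 7.48, 14.0 and 8.12 at 42 h, against 1.70, 0.647, 1.77 and 0.691 at 24 h. In both, no library overlapped between the stages. DN7999_c0_g1, a match to SNAP25 of Drosophila (SNP25_DROME), had 0.971, 0.404, 1.85 and 0.701 at 42 h, against 0.627, 0.231, 0.484 and 0.138 at 24 h, and its stages overlapped.

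Lists of other tissues moved with the stages too. Of 166 genes matching muscle proteins, 93 were called higher at 14 h than at 7 h, 61 higher and 55 lower at 24 h than at 14 h, and 28 higher and 32 lower at 42 h than at 24 h. Of 48 cuticle genes, 35 were called higher at 14 h and 43 at 42 h. Of 76 genes matching digestive and related proteases, 59 were called higher at 14 h and 58 at 42 h, and 42 were called lower at 24 h. Of all genes, 55.2% were called higher at 14 h, 10.6% higher and 18.6% lower at 24 h, and 67.3% higher and 5.14% lower at 42 h. The summed value of the muscle list was 811 to 1422 at 3 h, 1465 to 2190 at 7 h, 2028 to 4888 at 14 h, 4939 to 6862 at 24 h and 2333 to 8986 at 42 h, with 501 in 42 h D, and 1138 to 1480 in quiescent eggs. That of the cuticle list was 119.6 to 215 at 3 h, 101.2 to 143 at 7 h, 271 to 508 at 14 h, 365 to 676 at 24 h and 827 to 3340 at 42 h, with 105 in 42 h D, and 90.2 to 166 in quiescent eggs. That of the protease list was 57.5 to 83.6 at 3 h, 13.4 to 38.6 at 7 h, 231 to 595 at 14 h, 47.2 to 166 at 24 h and 311 to 1894 at 42 h, with 93.5 in 42 h D, and 38.5 to 63.6 in quiescent eggs. Their part in the results for the receptors and channels was not tested. Since acetylcholine and glutamate receptors also serve muscle in animals, no gene of the set was assigned to a cell type.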

How the data were processed

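RNA of whole-egg batches (0.3 ug per library) was sequenced, and the submitters' processing notes name bcl2fastq and edgeR, without versions. How reads were aligned and counted is not stated in the labels. The deposited signal values behave as read counts divided by a factor for each library, since steps of 1 read gave whole reads, within 0.1 of a step, for 100% of values up to 2000 reads. Per the labels, the table of 9502 genes holds those selected at an alpha of 0.001 and a fold of 2, and 2777 genes are in a second table for quiescent eggs. Of these, 2689 are in both tables with identical values.

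Values were tested with limma 3.58.1 in R 4.3.3 on log2(value + 0.1), in 1 fit over the 6 groups and 25 libraries, without 42 h D. Genes with at least 0.1 in 3 or more libraries entered (9443), and Benjamini-Hochberg adjustment ran over all of them, with calls at an adjusted p under 0.05. Alternatives were edgeR 4.0.16 (quasi-likelihood) on the recovered reads, other scalings, pseudocounts and filters, a run term, a replicate block, and leaving out each library. Any gene with a protein match could be named under its role. Values in every library were for, at most, the 3 called genes with the largest change in each role and comparison; some of these are given by their change alone or not at all, and genes outside them are marked in the text. The members, groups and lists were chosen with earlier results of these data known. Gene names come from the matches in the deposited table. No transcript sequence was used here. The replicate letters were checked for pairing, and the main fit did not pair the libraries.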

Additional observations from a re-analysis of the deposited data

Results flagged for a closer look

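Within a stage, 48 groups of summed values (all 117 genes and each role, with 42 h taken once with and once without 42 h D) were compared with Dixon's 95% critical value, which about 1 in 20 independent groups passes by chance. The sums overlap, so the groups are not independent. In 4 of the 48 a library was set apart by its gap to the nearest other. The summed value of all 117 genes was 16.1 in 7 h C, below the 19.1 to 19.6 of the other 7 h libraries. Of that sum DN439_c1_g1 gave 5.21 in 7 h C, against 7.32 to 12.6 in the others, and without it 7 h C had 10.9, within the 7.07 to 12.2 of the other 7 h libraries. Without 42 h D, the summed value of all 117 genes was 240 in 42 h C, above the 118 to 123 of 42 h A, B and E. The summed value of the 3 DEG/ENaC channels was 0.485 in 42 h A, below the 1.85 to 2.06 of 42 h B, C and E. Their sum was 0.245 in 24 h A, above the other 24 h libraries.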

How the results depend on the processing

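Counts of genes called, given without a replicate block as 4, 80, 27, 90, 2 and 61 for 7 h against 3 h, 14 h against 7 h, 24 h against 14 h, 42 h against 24 h, and quiescent eggs against 7 h and 14 h, moved by over 1.5 times under these settings. With a pseudocount of 1 they were 29 at 14 h, 16 at 24 h, 1 and 15 in quiescent eggs. For all 9443 genes that setting gave 3145 higher and 261 lower at 14 h. With a pseudocount and a filter of 1, which left 25 of the genes tested, they were 1, 10, 4, 24, 0 and 6. With 42 h D they were 2, 30, 3, 59, 0 and 7. edgeR moved 7 h against 3 h to 11. Median-ratio rescaling gave 19 at 7 h, 37 at 14 h, 5 and 18 in quiescent eggs, and quantile normalization gave 24 at 7 h, 43 at 14 h, 50 at 42 h, 10 and 6 in quiescent eggs. Fits of only the 2 groups compared gave 14 at 7 h, 14 at 24 h and 4 for quiescent eggs against 7 h. The quiescent table, with 31 of the genes tested, gave 0 and 26. Counts with 0 calls are from limma; at an unadjusted p under 0.05 the main setting gave 4 genes for quiescent eggs against 7 h.

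Leaving out 1 library gave 3 to 6, 50 to 86, 17 to 33, 86 to 92, 0 to 2 and 31 to 74 genes in the same order. The lowest counts came without 14 h E (50 and 31) and without 14 h C (17). Quiescent eggs against 14 h had 35 without quiescent A and 38 without quiescent D. Quiescent eggs against 7 h had 0 without quiescent C or D, and 1 without quiescent A, 14 h A, 14 h C or any 7 h library. The replicate block gave 4, 76, 23, 90, 2 and 48, and the run term 4, 83, 28, 91, 2 and 65. Same-letter libraries had median correlations of their deviations between -0.06 and 0.14, with single pairs from -0.14 to 0.29. Different-letter libraries had medians between -0.05 and 0.04. The highest same-letter median was at 7 h against 3 h, 0.14 beside -0.05 for different letters. With 2 to 5 same-letter pairs in a comparison, pairing can be neither shown nor excluded.

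Of 82 changes named for single genes, 59 were called whichever library was left out. Under the replicate block 77 stayed called, under edgeR 76, with the run term 82, with a pseudocount of 1 57, and with 42 h D 39. Direction turned in 3 under median-ratio rescaling and in 13 under quantile normalization. Both make the libraries alike, so such turns were in part fixed by the method, and other causes were not tested. At 14 h against 7 h, quantile normalization gave -0.25 for DN31407_c0_g1, -0.24 for DN30518_c0_g1, -0.79 for DN2835_c0_g1, -0.58 for DN39707_c0_g1, -0.20 for DN39334_c0_g1 and -0.20 for DN12908_c0_g1. At 42 h against 24 h it gave -0.43 for DN30518_c0_g1 and -0.096 for DN53471_c0_g1. In quiescent eggs against 14 h it gave 0.17 for DN16769_c1_g1, 0.23 for DN2835_c0_g1, 0.066 for DN13864_c0_g1, 0.093 for DN39334_c0_g1 and 0.12 for DN67549_c0_g1. Median-ratio rescaling gave -0.30 for DN2835_c0_g1 at 14 h against 7 h, 0.00114 for DN2835_c0_g1 in quiescent eggs against 14 h, and -0.013 for DN439_c1_g1 at 42 h against 24 h. Where values are below 0.0268, a library held under 3 reads of the gene, and changes there are limited by depth.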
